A study of Mus musculus with 12 samples.

Results

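A set of 6 receptors that guide myeloid cells along gradients of chemoattractants, Ccr1, Ccr2, Ccr3, Cx3cr1, Cxcr4 and Cmklr1, was followed by name through the deposited counts, where they are 6 of 12339 listed genes. All 6 were listed and all 6 passed the filter on low counts. The libraries came from mouse peritoneal macrophages of 4 groups with 3 libraries each: wild type (WT) on chow, WT on a high-fat "Western" diet (HFD), meKO on chow and meKO on HFD. Per the labels, all animals, chow controls included, received AAV8PCSK9 at 8 weeks of age, a virus that depletes the LDL receptor of hepatocytes. After 4 weeks of diet, thioglycolate was given to elicit macrophages, which were washed out of the peritoneal cavity. No group without AAV8PCSK9 and no unelicited macrophages were analysed here. Protein kinase C epsilon of myeloid cells is the gene product in the series title, so meKO is read as the myeloid knockout of its gene, Prkce; the labels name neither the recombinase nor the deleted exons. The labels describe 8 animals of each genotype, 4 of them on HFD, against 3 libraries a group here, and do not say that each library is 1 animal. P-values therefore measure the spread between libraries.

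Chemokine receptors are membrane proteins coupled to inhibitory G proteins, and a cell carrying one moves toward its ligand. Ccr2 binds Ccl2 and Ccl7 and is the receptor by which Ly6C-high monocytes leave the bone marrow, and its level falls as monocytes become macrophages. Cx3cr1 binds membrane-anchored fractalkine and marks patrolling monocytes and many resident macrophages. Ccr1 binds inflammatory ligands such as Ccl3 and Ccl5, Ccr3 binds eotaxins and is best known on eosinophils, Cxcr4 binds Cxcl12 and holds leukocytes in the marrow, and Cmklr1 is a receptor for chemerin. In atherosclerosis, Ccr2 and Cx3cr1 are known for bringing monocytes to the vessel wall.

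On the RefSeq annotation of GRCm38.p6, 4 of the 6 genes lie on chromosome 9. Ccr1 (Entrez 12768) spans chr9:123962126-123968692 on the minus strand, Ccr3 (12771) chr9:124017825-124031692 on the plus strand and Ccr2 (12772) chr9:124101918-124109140 on the plus strand. Cx3cr1 (13051) is at chr9:120048683-120068296, minus strand. Cxcr4 (12767) is at chr1:128588199-128592299, minus strand, and Cmklr1 (14747) at chr5:113612355-113650475, minus strand.

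All 6 genes matched an entry among the RefSeq promoters. The table gives 1 transcript start per gene, which for Ccr2, Ccr3 and Cmklr1 lies inside the span given above. In the 250 bases before that start, 4 motifs were searched on both strands: GAGGAA, the core letters bound by the macrophage factor PU.1; TGANTCA, bound by AP-1; TTGCNNAA, bound by C/EBP factors; and the TATA box letters TATAAA. Ccr1, Ccr3 and Cmklr1 each held GAGGAA, and their windows are shown because these letters are what they share; matches are in capitals and the sequences, from RefSeq on GRCm38.p6, read 5′ to 3′.
Ccr1, chr9:123968693-123968942, minus strand: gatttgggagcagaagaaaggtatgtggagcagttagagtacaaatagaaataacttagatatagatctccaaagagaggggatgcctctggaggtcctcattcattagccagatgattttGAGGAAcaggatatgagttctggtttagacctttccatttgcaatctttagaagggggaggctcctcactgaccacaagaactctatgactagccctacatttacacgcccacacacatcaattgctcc
Ccr3, chr9:124021721-124021970, plus strand: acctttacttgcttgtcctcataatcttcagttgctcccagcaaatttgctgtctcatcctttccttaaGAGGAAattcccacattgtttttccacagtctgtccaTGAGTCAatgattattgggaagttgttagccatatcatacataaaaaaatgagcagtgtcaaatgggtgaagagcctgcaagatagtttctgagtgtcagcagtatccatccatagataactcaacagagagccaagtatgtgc
Cmklr1, chr5:113643604-113643853, minus strand: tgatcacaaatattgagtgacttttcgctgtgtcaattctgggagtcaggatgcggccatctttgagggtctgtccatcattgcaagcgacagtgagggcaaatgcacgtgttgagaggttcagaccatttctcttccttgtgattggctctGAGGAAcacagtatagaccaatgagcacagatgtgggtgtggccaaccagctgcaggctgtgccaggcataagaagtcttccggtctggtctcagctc
GAGGAA lies 129 to 124 bases before the start of Ccr1, 181 to 176 before Ccr3 and 98 to 93 before Cmklr1. It was present in 22.7% of the 9553 promoter windows of this length. Ccr3 also held TGAGTCA, an AP-1 match, 144 to 138 bases upstream, against 4.37% of all windows. In Cxcr4 a TATA box match ended 25 bases upstream, against 6.28% of windows. The Ccr2 and Cx3cr1 windows held none of the 4 motifs. In GENCODE, exons of any gene on either strand cover 233 and all 250 of their bases, against 0 in the other windows. The Ccr2 and Cx3cr1 windows are thus mostly annotated exon, and which genes these exons belong to was not examined. The whole Ccr2 window lies inside the span of Ccr2 given above, so its lack of motifs does not describe sequence outside the gene. The Ccr3 and Cmklr1 windows also lie inside the spans of their genes. TTGCNNAA was in none of the 6 windows and in 7.73% of all windows. A match is a string of letters and says nothing of binding.

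Some reads of the members could come from other genes. The longest transcript of each member was compared with transcripts of other genes, on the same strand only. Of the 50-base windows of Ccr2, 2.27% occur unchanged in another gene, against 0.27% for Cx3cr1 and 0.176% for Cmklr1. No such window of Ccr1, Ccr3 or Cxcr4 occurs in another gene. Cx3cr1 overlaps 78 exon bases of the antisense transcript Gm33858, and the strand setting of the counting is not given in the sources used here, so Ccr2 and Cx3cr1 are the least certain of the 6 counts.

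Total counts per library were 25844958 to 37282772. Prkce, the gene named by the title, was at 2.01 to 4.44 CPM (counts scaled to library size with edgeR's TMM factors) in the 6 WT libraries and at 0.95 to 1.78 CPM in the 6 meKO libraries, without overlap. Averaged over diets the meKO libraries differed from WT by -1.13 ± 0.22 (SE) on the log2 scale, not past the 0.05 threshold (edgeR adjusted p = 0.0588). Lyz2, a lysozyme gene of myeloid cells, was at 30482 CPM or more in the WT libraries, at 16293 to 21309 CPM in 5 meKO libraries and at 69.3 CPM in meKO chow replicate 2. That library stands apart from its group by this gene, and results are also given without it where it decides them. Of the 8 macrophage markers, including Adgre1, Csf1r and Cd68, none was at 0 in any library, and Cd68 was at 2538 CPM or more throughout. A trend with transcript length set other libraries apart. Across genes, which are not independent replicates, the deviation of a gene's log2 CPM from its 12-library mean correlated with exon length at Spearman's rho 0.53 in WT chow replicate 1 and 0.58 in WT chow replicate 2, against -0.39 to 0.11 in the other libraries.

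Cxcr4 and Ccr1 were the most abundant of the receptors per length of transcript. Mean CPM per kilobase of exon over the 12 libraries was 106 ± 13.3 (SD) for Cxcr4 and 103 ± 18.1 for Ccr1. Ccr2 followed at 28.9 ± 5.8 and Cmklr1 at 13.9 ± 3.13. Ccr3 was at 5.55 ± 2.78 and Cx3cr1 at 1.08 ± 0.383 CPM per kilobase. In counts, Cx3cr1 rested on 61 to 270 per library and Ccr3 on 257 to 1225, while each of the others had at least 833. Cx3cr1 had the fewest counts, while the SE of the fold change was largest for Ccr3 of the 6 (0.33 for diet in WT, against 0.25 for Cx3cr1). The summed level of the 6 receptors stayed between 683 and 808 CPM across the libraries, while its makeup varied.

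**Figure D1:**
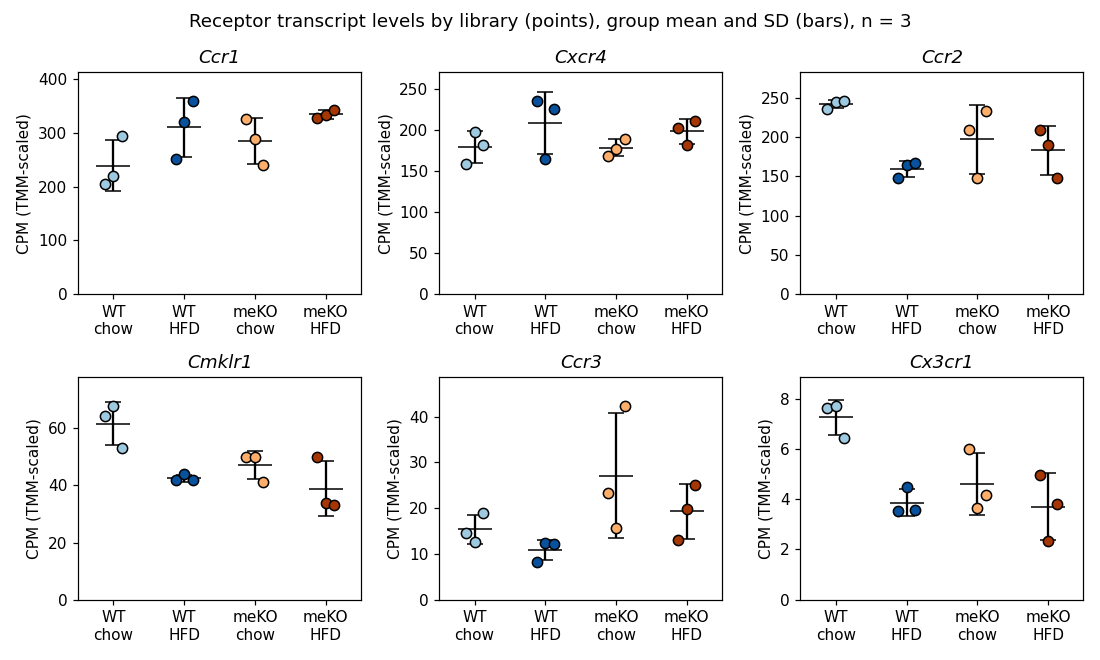
TMM-scaled CPM of each receptor (vertical axes, from 0) in the 4 groups; points are libraries and bars give the group mean and SD (n = 3). Ccr2, Cx3cr1 and Cmklr1 are highest in the 3 WT chow libraries, at means of 242, 7.26 and 61.7 CPM, and Ccr3 reaches its highest value, 42.3 CPM, in 1 meKO chow library.

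The first comparison asked what HFD did in WT macrophages. Ccr2 fell by 34.0%, Cx3cr1 fell by 46.9% and Cmklr1 fell by 31.1%. Ccr1, Cxcr4 and Ccr3 did not pass the test. Against this count of 3 of 6, edgeR's quasi-likelihood test called 21.3% of all 12339 genes in this comparison at an adjusted p under 0.05. As lower it called 11.8%. At an unadjusted p under 0.05 the counts were 4 of 6 and 39.4% of all genes. The all-gene calls, 2634 in number, depended on single libraries. They became 129, 319 and 4921 without WT chow replicate 1, 2 or 3, and 96 without WT HFD replicate 3. WT chow replicates 1 and 2 carried the length trend (rho 0.53 and 0.58), and replicate 3 did not (-0.04). With a correction for transcript length and GC content 1999 genes were called. Whether diet or differences between libraries gave these calls was not tested.

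Ccr2 stood at 236, 245 and 246 CPM in the WT chow libraries and at 148, 164 and 167 CPM on HFD. The 3 chow libraries lay close together and above every HFD library. That is -0.60 ± 0.16 (SE) as a log2 fold change (edgeR adjusted p = 0.0231). Cx3cr1, the scarcest of the receptors, stood at 7.64, 7.71 and 6.45 CPM on chow and at 3.53, 4.48 and 3.58 CPM on HFD. Again no library of one diet reached into the range of the other, and the log2 fold change was -0.91 ± 0.25 (edgeR adjusted p = 0.0267). Cmklr1, the chemerin receptor, was at 64.2, 67.8 and 53.2 CPM on chow and at 41.8, 43.9 and 41.8 CPM on HFD. Its HFD values were tight and all lay under the lowest chow library, with a log2 fold change of -0.54 ± 0.16 (edgeR adjusted p = 0.0307). Non-overlap by itself was common here, at 39.3% of all genes.

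Ccr1 had the opposite sign. It was at 205, 220 and 293 CPM on chow and at 252, 319 and 359 CPM on HFD. Its groups overlapped through WT chow replicate 3, and the log2 fold change of 0.37 ± 0.16 did not pass (edgeR adjusted p = 0.101). Without that library Ccr1 passed, at 0.55 ± 0.15 (adjusted p = 0.0122). With a correction for transcript length and GC content the difference was 0.04 ± 0.15 (adjusted p = 0.878). Cxcr4, a short transcript of 1808 exon bases, was at 158, 197 and 182 CPM on chow and at 235, 165 and 225 CPM on HFD. These ranges overlapped, and the log2 fold change was 0.22 ± 0.13 (edgeR adjusted p = 0.240), or -0.22 ± 0.16 with the length correction. Ccr3 was at 14.6, 12.7 and 18.9 CPM on chow and at 8.32, 12.3 and 12.1 CPM on HFD, apart but with a wide error (-0.50 ± 0.33, edgeR adjusted p = 0.269).

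The 3 calls in WT kept their size under the length and GC correction, at -0.60, -0.88 and -0.54 for Ccr2, Cx3cr1 and Cmklr1 with edgeR adjusted p of 0.0283, 0.0291 and 0.0267. They rested on certain libraries, however. None of the 6 passed when replicate 1 or 2 of WT chow, or replicate 1 or 3 of WT HFD, was left out: Ccr2 was then at adjusted p 0.0922, 0.0817, 0.0745 and 0.0889, Cx3cr1 at 0.0815 to 0.112 and Cmklr1 at 0.0837 to 0.124. Leaving out WT HFD replicate 2 lost Cmklr1 alone (0.0587). The log2 fold changes moved little in these refits, over all 22 alternatives from -0.69 to -0.54 for Ccr2, from -1.03 to -0.85 for Cx3cr1 and from -0.63 to -0.46 for Cmklr1.

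In a bulk library, fewer cells of a type and less RNA per cell cannot be told apart, so cell type markers were read beside the receptors for diet in WT. Calls among them stand beside the 21.3% of all genes that passed in this comparison. B cell markers (5 of 6 listed) summed to 106 to 163 CPM on chow and 51.9 to 87.2 CPM on HFD, and 2 of the 5 fell. The 6 dendritic cell markers summed to 31.3 to 46.7 CPM against 15.9 to 24.3 CPM, and 1, Flt3, fell. Neutrophil markers (6 of 9 listed) summed to 156 to 199.9 CPM on chow and 140.1 to 149.7 CPM on HFD; S100a8 and S100a9 rose, and Csf3r and Retnlg fell. Eosinophil markers (4 of 8 listed) summed to 20.5 to 42.5 and 15.5 to 20.0 CPM, and 1, Alox15, fell. Of the mast cell markers only Kit passed, as lower, and of the T and NK cell markers only Gzma, as higher, with overlapping sums in both lists. Of the 8 macrophage markers, Cd14 rose and Mertk fell. Markers of classical monocytes, the cells with the most Ccr2, summed to 370.3 to 569.7 CPM on chow and 340.2 to 478 CPM on HFD, which overlap. Of these 6, F13a1, a coagulation factor subunit made by monocytes and macrophages, had a log2 fold change of -0.86 for diet in WT (edgeR adjusted p = 0.0123) and passed in meKO too (-1.10, adjusted p = 0.0297). Markers of nonclassical monocytes, rich in Cx3cr1, summed to 35.0 to 49.3 and 36.0 to 40.1 CPM (5 of 6 listed). The 6 markers of resident large peritoneal macrophages summed to 226 to 659 CPM on chow and 979 to 1584 CPM on HFD, while none of the 6 passed the test. Most of the sum was Cd5l, at 155 to 506 CPM on chow and 911 to 1486 CPM on HFD. Prg4 went the other way, at 27.8 to 95.3 and 20.7 to 37.4 CPM, and the list's median log2 fold change was 0.13. None of these markers was at 0 in any library, and their part in the receptor differences was not tested.

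**Figure D2:**
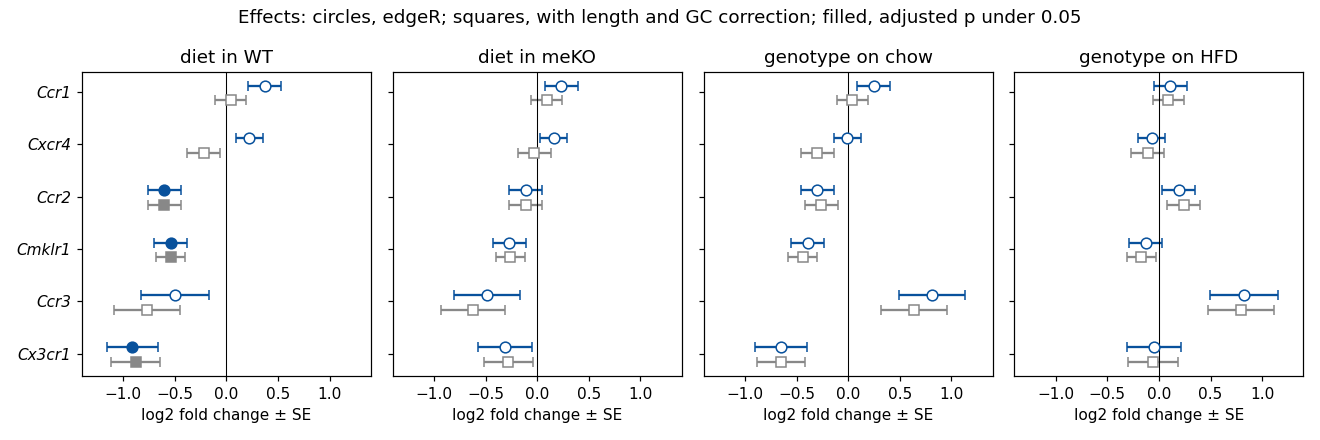
Log2 fold change with SE (horizontal axes) of each receptor in the 4 simple comparisons; circles are the edgeR fit, squares the fit with length and GC correction, and filled symbols passed at an adjusted p under 0.05. Filled symbols appear for Ccr2, Cx3cr1 and Cmklr1 under diet in WT alone, and the squares of Ccr1 and Cxcr4 sit lower than their circles there.

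The same diet change in meKO macrophages gave no call among the 6, with edgeR, DESeq2 and limma-voom alike, and edgeR called 0.105% of all genes. None of the 6 had an unadjusted p under 0.05, against 15.9% of genes. Ccr2 was at 209, 148 and 233 CPM in meKO chow and at 209.6, 189.9 and 148 CPM in meKO HFD. These ranges overlapped, and the log2 fold change was -0.11 ± 0.16. Cx3cr1 was at 6.02, 3.64 and 4.18 CPM on chow and 4.97, 2.33 and 3.81 CPM on HFD (-0.31 ± 0.26). Cmklr1 was at 49.9, 50 and 41.3 CPM on chow and 49.8, 33.7 and 33.1 CPM on HFD (-0.27 ± 0.16). The meKO HFD replicate 1 lay inside the meKO chow range of both. Every meKO chow library lay below every WT chow library in Ccr2, Cx3cr1 and Cmklr1. The 2 chow groups were apart for 17.1% of all genes, and none of these 3 genotype differences passed. Ccr1 was at 325, 289 and 239.6 CPM on chow and at 327, 332 and 343 CPM on HFD. Its ranges just missed each other, as they did for 19.7% of all genes, and the log2 fold change was 0.23 ± 0.16 (edgeR adjusted p = 0.466). Cxcr4 was at 168, 177 and 189 CPM on chow and 202, 182 and 211 CPM on HFD (0.16 ± 0.13). Ccr3 differed by -0.49 ± 0.32, with overlapping groups (edgeR adjusted p = 0.446). That value was -0.02 ± 0.28 without meKO chow replicate 3, -0.27 ± 0.34 without meKO HFD replicate 1 and -0.78 ± 0.29 without meKO chow replicate 2. Cx3cr1 was at -0.07 without meKO chow replicate 1 or meKO HFD replicate 2. Without meKO HFD replicate 1, Cx3cr1 was at -0.59 ± 0.26 and Cmklr1 at -0.50 ± 0.13. Ccr1 was at 0.12 ± 0.17 without meKO chow replicate 3. None of these passed (edgeR adjusted p from 0.0685 to 0.987).

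Whether diet acted differently in the 2 genotypes was tested as an interaction. None of the 6 passed with edgeR, DESeq2 or limma-voom, and 1, Ccr2, had an unadjusted p under 0.05. Its diet effect was less negative in meKO by 0.49 ± 0.22 on the log2 scale (edgeR adjusted p = 0.797); 6.13% of all genes had an unadjusted p under 0.05 and 0.0162% passed. For Cx3cr1 the difference was 0.60 ± 0.36 (adjusted p = 0.805) and for Cmklr1 0.26 ± 0.22 (adjusted p = 0.842). Leaving out meKO HFD replicate 1 gave 0.32 ± 0.34 for Cx3cr1 and 0.04 ± 0.18 for Cmklr1, leaving out meKO HFD replicate 2 gave 0.85 ± 0.31 and 0.36 ± 0.22, and leaving out meKO chow replicate 2 gave 0.31 ± 0.19 for Ccr2. The calls in WT and their absence in meKO therefore do not show that the genotypes responded differently.

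Averaged over both genotypes, the diet effect again called Ccr2, Cx3cr1 and Cmklr1 as lower, where edgeR called 30.2% of all genes and 15.3% as lower. Cmklr1 fell by 0.41 ± 0.11 on the log2 scale (edgeR adjusted p = 0.0175), a call that each of the 21 alternatives gave. Cx3cr1 fell by 0.61 ± 0.18 (adjusted p = 0.0237) and Ccr2 by 0.35 ± 0.11 (adjusted p = 0.0300). Cx3cr1 lost its call without replicate 1 (0.0576) or 2 (0.0518) of WT chow, replicate 1 (0.0532) or 3 (0.0616) of WT HFD, or replicate 1 of meKO chow (0.0589). Ccr2 lost it without any of these same libraries (0.0593, 0.0604, 0.0683, 0.0575 and 0.0613), and also without meKO chow replicate 3 (0.0833) or meKO HFD replicate 3 (0.0713). Ccr1 was at 0.30 ± 0.11 (edgeR adjusted p = 0.0568), passing in 5 of 21 alternatives but standing at 0.06 ± 0.10 with the length correction. Among those 5 are the fits that leave out WT chow replicate 3 (0.00852), WT HFD replicate 1 (0.0366) or meKO chow replicate 1 (0.0467). Ccr3 was at -0.50 ± 0.23 (edgeR adjusted p = 0.113) and passed without meKO chow replicate 2 (-0.64 ± 0.20, adjusted p = 0.0332) and with the length correction (-0.69 ± 0.23, adjusted p = 0.0427), while without meKO chow replicate 3 it was at -0.26 ± 0.19 (adjusted p = 0.316). Cxcr4 was at 0.19 ± 0.10 (adjusted p = 0.143), and 1 omission, of WT HFD replicate 2, made it pass (0.0381).

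The ratio of Ccr1 to Ccr2 within a library rises whether Ccr1 is higher or Ccr2 lower, and Ccr1 by itself did not pass for diet in WT. Counts of Ccr1 per count of Ccr2, each scaled alike, were 0.867, 0.898 and 1.20 in WT chow and 1.70, 1.94 and 2.14 in WT HFD. The ratio was higher in every WT HFD library than in any on chow. In meKO it was 1.56, 1.95 and 1.03 on chow and 1.56, 1.75 and 2.31 on HFD, which overlap. The Ccr1 transcript has 2833 exon bases and that of Ccr2 has 6760, and these ratios are not corrected for the length trend. With the correction, the log2 fold changes for diet in WT were 0.04 for Ccr1 and -0.60 for Ccr2.

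**Figure D3:**
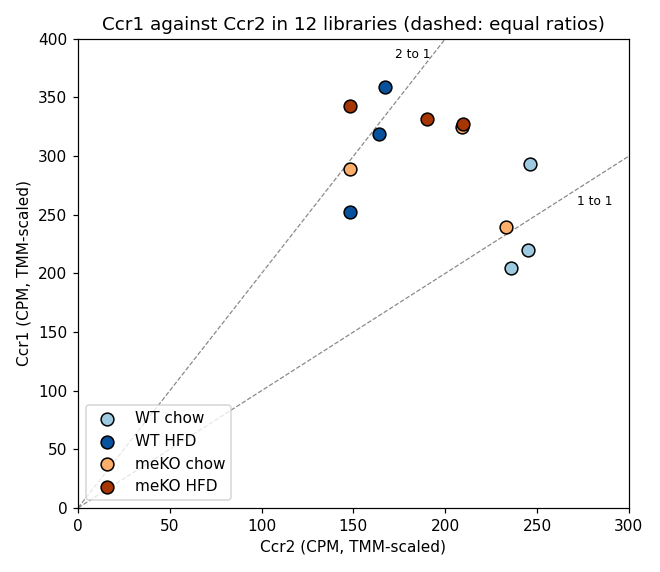
Ccr1 (vertical axis) against Ccr2 (horizontal axis), both in TMM-scaled CPM, in each of the 12 libraries, colored by group; dashed lines mark ratios of 1 to 1 and 2 to 1. The 3 WT chow libraries lie near the first line, at ratios of 0.867 to 1.20, and the 3 WT HFD libraries near the second, at 1.70 to 2.14.

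The genotype comparisons asked whether the receptors differed between meKO and WT. On chow none of the 6 passed with edgeR, DESeq2 or limma-voom, and 3 (Ccr3, Cx3cr1 and Cmklr1) had an unadjusted p under 0.05, as did 19.8% of all genes; edgeR called 0.081%. Cx3cr1 was at -0.65 ± 0.25 in log2 fold change, meKO minus WT (edgeR adjusted p = 0.182), and Cmklr1 at -0.39 ± 0.16 (adjusted p = 0.195). Ccr2 was at -0.30 ± 0.16 (adjusted p = 0.289), and at -0.12 ± 0.14 without meKO chow replicate 2. For these 3 the WT chow libraries all lay above the meKO chow libraries, as was so of either sign for 17.1% of all genes. With library quality weights in limma-voom, a fit that called 4047 genes, 3 members passed: Cx3cr1 (adjusted p = 0.0116), Cmklr1 (0.0141) and Ccr1 (0.40 ± 0.14, 0.0430). Ccr1 was at 0.25 ± 0.16 in the edgeR fit (0.44 ± 0.15, adjusted p = 0.0561, without WT chow replicate 3) and Cxcr4 at -0.01 ± 0.13. The edgeR fit without WT chow replicate 3 called 2543 genes on chow but none of the 6. Cmklr1 was then at adjusted p 0.0519, Cx3cr1 at 0.0771 and Ccr3 at 0.0953. On HFD none passed with any of these tools, edgeR called 0.081% of all genes, and 1 member, Ccr3, had an unadjusted p under 0.05, against 4.56% of genes. Ccr2 on HFD was at 0.19 ± 0.16, Cx3cr1 at -0.05 ± 0.26, Cmklr1 at -0.13 ± 0.16, Ccr1 at 0.11 ± 0.16 and Cxcr4 at -0.07 ± 0.13. Without meKO HFD replicate 1, Cx3cr1 was at -0.33 ± 0.26 and Cmklr1 at -0.35 ± 0.13.

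Ccr3 had the largest genotype difference of the 6, with higher levels in meKO on either diet. It was at 23.4, 15.6 and 42.3 CPM in meKO chow and at 13, 19.8 and 25.1 CPM in meKO HFD, against 12.7 to 18.9 CPM in WT chow and 8.32 to 12.3 CPM in WT HFD. The groups overlapped on chow and were apart on HFD, as they were for 10.3% of all genes. The log2 fold change was 0.81 ± 0.32 on chow (edgeR adjusted p = 0.196) and 0.82 ± 0.33 on HFD (adjusted p = 0.999). Averaged over diets it was 0.82 ± 0.23 (edgeR adjusted p = 0.149), where edgeR called 0.17% of genes and none of the 6. Ccr3 and Cmklr1 (2 of 6) had an unadjusted p under 0.05 there, against 17.7% of genes. The averaged Ccr3 difference passed in DESeq2 (0.82 ± 0.22, adjusted p = 0.0195) and with quality weights (0.94 ± 0.21, adjusted p = 0.00698), and in no other of the 21 alternatives. Quality weights also called Ccr1 (0.0242), Cx3cr1 (0.0423) and Cmklr1 (0.00701). Among all genes, DESeq2 called 366 in this comparison and the fit with quality weights 3835, against 21 in edgeR. The edgeR fit without WT chow replicate 3 called 1400, with Ccr3 at 0.91 ± 0.27 (adjusted p = 0.0543). Without meKO chow replicate 3, the library with the most Ccr3, the averaged value was 0.58 ± 0.19 (edgeR adjusted p = 0.199) and the chow value 0.34 ± 0.27. Without meKO chow replicate 2 they were 0.96 ± 0.20 (adjusted p = 0.128) and 1.10 ± 0.29.

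Since Ccr3 is best known on eosinophils, and is also found on mast cells and basophils, markers of these cells were read beside it. Of 8 eosinophil markers 4 were listed, and the granule genes Prg2, Epx, Ear1 and Ear6 were not among the listed genes. The 4 summed to 20.5 to 42.5 CPM in WT chow, 15.5 to 20.0 in WT HFD, 17.5 to 35.9 in meKO chow and 20.9 to 33.3 in meKO HFD, with none at 0 in any library and none passing for genotype. Siglecf, the eosinophil lectin, had its highest values, 10.6 and 11.5 CPM, in meKO chow replicate 3 and meKO HFD replicate 3, where Ccr3 was highest in each group. The rest of the list was mixed. Il5ra was highest in meKO chow replicate 3 (3.39 CPM), but Ear2 in meKO HFD replicate 2 (15.0 CPM) and Alox15 in WT chow replicate 3 (24.1 CPM). The 8 mast cell markers, led by the proteases Cpa3 and Cma1, summed to 202 to 358 CPM in 11 libraries and to 57.8 CPM in meKO chow replicate 3. Mast cell transcripts were thus lowest in the library with the most Ccr3. Of the 6 listed neutrophil markers, 3 were higher in meKO averaged over diets, where 0.17% of all genes passed. They were S100a9 (2.64 on the log2 scale), Retnlg (1.60) and Cxcr2 (1.47), while S100a8, Mmp8 and Csf3r did not pass. Csf3r, the most abundant of the list by count, was at 85.3 to 94.0 CPM in meKO chow against 98.5 to 119.5 in WT chow. The neutrophil sums overlapped on chow (156 to 199.9 CPM in WT, 164 to 192 in meKO). They were apart on HFD (140.1 to 149.7 CPM in WT, 170.2 to 185 in meKO). The neutrophil marker Retnlg, a resistin-like protein, was at 14.4 to 33.6 CPM in meKO chow and 9.78 to 18.7 in meKO HFD, against 7.71 to 10.2 in WT chow and 3.43 to 5.10 in WT HFD. Retnlg is among the 3 genes most like Ccr3 over these same libraries (Pearson r 0.925), so its likeness to Ccr3 is no separate evidence. The part of these cells in the Ccr3 difference was not tested.

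**Figure D4:**
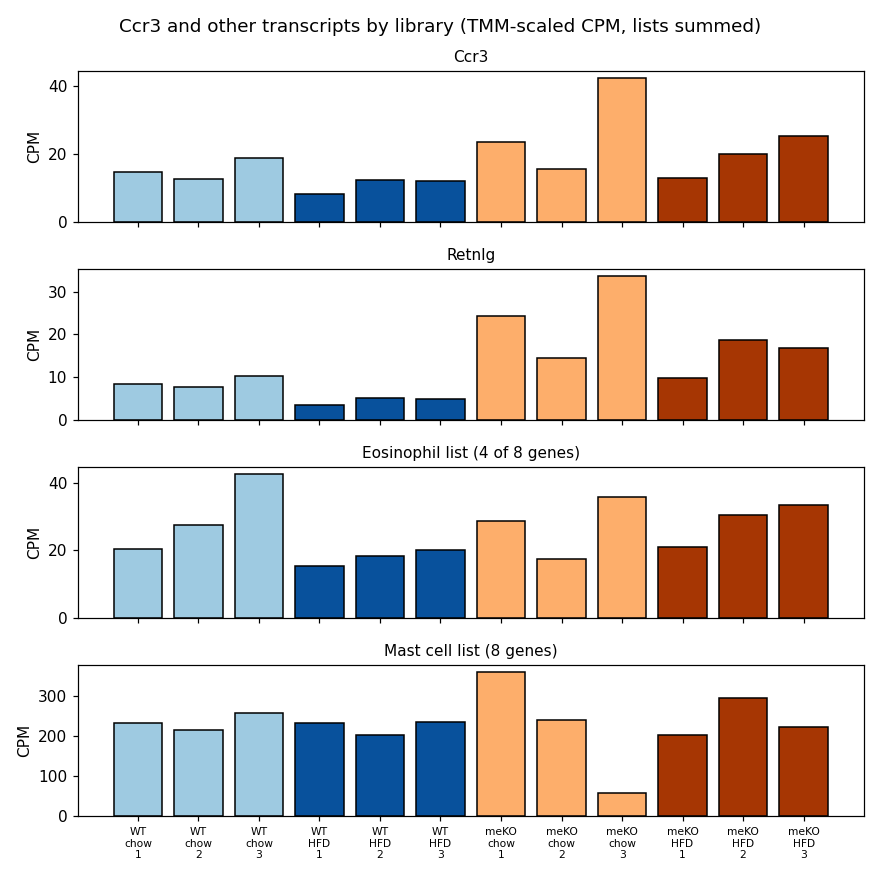
Bars give, for each of the 12 libraries, TMM-scaled CPM of Ccr3, of Retnlg, and of the eosinophil and mast cell lists summed (vertical axes from 0). Ccr3 and Retnlg are both highest in meKO chow replicate 3, at 42.3 and 33.6 CPM, where the mast cell sum is lowest, at 57.8 CPM. Retnlg is among the 3 genes most like Ccr3 over these same libraries.

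Ordered by group mean, the receptors showed a few patterns. Ccr2 ran from WT chow (242 ± 5.25 CPM, SD, n = 3) through meKO chow (197 ± 43.7) and meKO HFD (183 ± 31.3) to WT HFD (159.8 ± 10.2). Only the first step had libraries apart. Cx3cr1 ran from WT chow (7.26 ± 0.71) through meKO chow (4.61 ± 1.25) and WT HFD (3.86 ± 0.533) to meKO HFD (3.70 ± 1.33), and Cmklr1 in the same order (61.7 ± 7.62, 47.1 ± 4.96, 42.5 ± 1.20 and 38.9 ± 9.50). In both, WT chow stood clear and the other 3 groups overlapped with their neighbors. Of all genes, 17.1% were apart between WT chow and meKO chow. Ccr1 ran the other way, from meKO HFD (334 ± 8.10) through WT HFD (309.7 ± 54.0) and meKO chow (285 ± 42.9) to WT chow (239 ± 47.4), with every step inside the overlap. Ccr3 ran from meKO chow (27.1 ± 13.7) through meKO HFD (19.3 ± 6.04) and WT chow (15.4 ± 3.17) to WT HFD (10.9 ± 2.22), apart at the last step only. Cxcr4 was nearly flat, from WT HFD (208 ± 38.1) through meKO HFD (198 ± 14.9) to WT chow (179 ± 19.9) and meKO chow (178 ± 10.4).

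Across the 12 libraries, which include the group differences and the length trend, Cx3cr1 and Cmklr1 varied most alike of the 15 pairs, with a Pearson r of log2 CPM of 0.87 (0.84 after length correction). Ccr2 followed Cx3cr1 at 0.68 and Cmklr1 at 0.61. Ccr1 and Cmklr1 were at -0.64, and at 0.01 after the correction. The listed genes most like each receptor were Fgd3, Ehmt2 and Sh3bp1 for Cx3cr1 (r 0.968 to 0.962) and, among those for Cmklr1, Numa1 (0.968) and Adap2 (0.964). Those for Ccr2 were Ggcx, Timeless and Pidd1 (0.925 to 0.901), and those for Ccr3 were Gapt, Retnlg and Zfp706 (0.935 to 0.898). Rgs3, Raly and Gm4928 were nearest to Ccr1 (0.962 to 0.957), but after the length correction at 0.26 to 0.40. Cxcr4 had the weakest nearest genes, Fitm2, Rbm39 and Gkap1 (0.842 to 0.804), at -0.05 to 0.26 after the correction. These are descriptions over libraries that share their groups.

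Genes that neighbor the receptors on chromosome 9 were read beside them. Of 18 other listed genes that start within 1 Mb of Ccr1, Ccr2 or Ccr3, 1 passed for diet in WT, where 21.3% of all genes passed: Fyco1, an adaptor for vesicle transport, which fell by 0.78 ± 0.15 on the log2 scale (edgeR adjusted p = 0.0107). Their median log2 fold change was -0.02, against -0.03 over all genes. Of the 16 listed genes around Cx3cr1, 2 passed for diet in WT, against the same 21.3%, Xylb (-0.81 ± 0.22, adjusted p = 0.0266) and Oxsr1 (-0.54 ± 0.18, adjusted p = 0.0453), with a list median of -0.08; these calls were lost in 5 and 12 of 22 alternatives. Neither share lies above that of all genes.

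**Figure D5:**
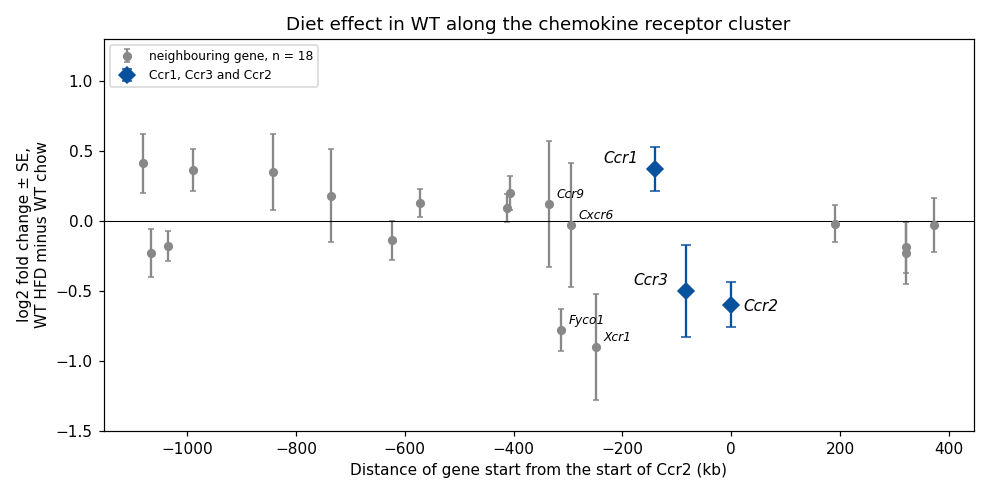
Log2 fold change with SE for diet in WT (vertical axis) against the distance of each gene's start from that of Ccr2 (horizontal axis, kb), for Ccr1, Ccr3 and Ccr2 (diamonds) and 18 neighboring genes (circles). Ccr1 at 0.37 (not called, and 0.04 with the length correction) lies above 0 and Ccr2 at -0.60 below.

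Other chemokine receptors were mostly scarce. Of the 19 considered, 10 were listed, and 9 of these had a mean of 3.22 CPM or less; the exception was Ccrl2, an atypical receptor that binds chemerin, at 117 CPM. For diet in WT 1 rose and 1 fell of the 10, about the 21.3% called over all genes: Ackr3, a scavenger of Cxcl12, went from a mean of 1.01 to 2.74 CPM (1.44 ± 0.45, edgeR adjusted p = 0.0373), and Cxcr3, a receptor of interferon-induced chemokines, from 2.30 to 0.965 CPM (-1.25 ± 0.40, adjusted p = 0.0421). Those calls were lost in 6 and 8 of 22 alternatives. For genotype averaged over diets 1 passed, where 0.17% of all genes did, Cxcr2, the neutrophil chemokine receptor, at means of 0.255 and 0.313 CPM in WT and 0.923 and 0.680 CPM in meKO, chow first (1.47 ± 0.24, edgeR adjusted p = 0.0280), a call lost in 7 of 20 alternatives. The medians of the 10 were -0.04 for diet in WT and 0.06 for genotype averaged, against -0.03 and 0.01 over all genes.

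Transcripts of ligands of the 6 receptors were present in the same libraries. Of 16 ligand genes, 13 were listed; Ccl11, Ccl12 and Cx3cl1 were not. Ccl6 and Ccl9, mouse ligands of Ccr1, were the most abundant by count, at 4153 to 6811 and 1136 to 2137 CPM. In WT 1 passed for diet: Mif, a cytokine that also binds Cxcr4, from a mean of 14.1 to 26.0 CPM (0.89 ± 0.16, edgeR adjusted p = 0.00919). With the length correction 1 of the 13 was higher and 1 lower for diet in WT. Averaged over genotypes 6 of 13 rose and none fell, where 14.9% of all genes were called higher. These were Ccl5, Ccl8, Ccl9, Cxcl12, Cxcl14 and Mif. With the length correction 3 were higher and 2 lower. Cxcl12, the ligand of Cxcr4, rose by 1.18 ± 0.25 on the log2 scale from a low level (means of 0.608 and 1.09 CPM in WT and 0.538 and 1.56 CPM in meKO; edgeR adjusted p = 0.00834). Cxcl14 rose by 0.81 ± 0.18 (adjusted p = 0.00947) and Mif by 0.76 ± 0.11 (adjusted p = 0.00287), and these 3 passed in all 21 alternatives. Ccl8 was at 1.21 ± 0.36 (adjusted p = 0.0257), a call lost in 5 of 20 alternatives. Ccl2, the ligand of Ccr2, was at 0.67 ± 0.36 (adjusted p = 0.176), and Rarres2, which encodes chemerin, at 0.46 ± 0.47 (adjusted p = 0.470). The list's median in the fit without the length correction was 0.67, against -0.03 over all genes.

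The signalling genes under these receptors were all listed, 40 of 40. For diet in WT 3 rose and 9 fell, where 9.5% of all genes were called higher and 11.8% lower, with a median of -0.21 against -0.03 over all genes, and with the length correction 4 rose and 9 fell. Gngt2, a G protein gamma subunit, rose from a mean of 110.4 to 324 CPM (1.55 ± 0.16, edgeR adjusted p = 0.000678), and Rgs1, which shortens G protein signals, from 228 to 469 CPM (1.04 ± 0.22, adjusted p = 0.0129). Arrb1, a beta-arrestin that takes receptors off the membrane, fell from 66.5 to 33.0 CPM (-1.01 ± 0.18, adjusted p = 0.00859), and Elmo1, which works with Dock2 to activate Rac, from 56.5 to 31.8 CPM (-0.83 ± 0.15, adjusted p = 0.00853). Among the others that fell were parts of the PI3K gamma complex: Pik3cg (-0.53 ± 0.11), Pik3r5 (-0.61 ± 0.17) and Pik3r6 (-0.61 ± 0.17). In meKO none of the 40 passed for diet. Averaged over genotypes 5 rose and 13 fell, where 14.9% of all genes were called higher and 15.3% lower. For genotype none passed with edgeR on chow, on HFD or averaged, where 0.081%, 0.081% and 0.17% of all genes did. The inhibitory G protein genes Gnai2 (-0.13 ± 0.14) and Gnai3 (0.11 ± 0.10), the most abundant of their family by count, did not pass for diet in WT.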

How the data were processed

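Per the labels, the RNA was a Trizol extract and the libraries were Illumina TruSeq. The authors deposited whole-number counts per gene and library; the submitters' processing notes name mm10 and DESeq2, without versions. The aligner, counter and strand setting are not given in the sources used here. Rows without a symbol (186, 0.44% of counts) were kept under their Entrez identifiers. Groups came from the titles; replicate numbers follow accession order and pair nothing.

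The tests of these counts were made in edgeR 4.0.16 (R 4.3.3; TMM, filterByExpr, which kept all 12339 genes, robust quasi-likelihood F test, two-sided, 4 group means over 12 libraries), with Benjamini-Hochberg adjustment over all genes and a call at an adjusted p under 0.05. Fold changes of list genes use the same fit. Alternatives (up to 22) were DESeq2 1.42.0, limma 3.58.1 (voom, with and without library quality weights), other scaling and filters, library totals, no robust dispersions, only the groups compared, a smooth correction for exon length and GC (values for 93.5% of genes, GENCODE on GRCm38, the same build as mm10), and each library left out. The code was tested on simulated data. Named genes were all 6 members, Prkce, up to 4 called genes per list and contrast by size of change, and the 3 genes most like each member (some items are not reported here); Lyz2, Retnlg, Siglecf and single signalling or ligand genes given beside these were chosen after their values were seen. Members and lists were chosen with earlier results of these data known. Correlations used log2 CPM with a prior count of 2.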

Additional observations from a re-analysis of the deposited data

How the results depend on the processing

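For diet in WT, 3 members were called, and leaving out 1 library gave 0 to 4, with 0 without WT chow replicates 1 or 2 or WT HFD replicates 1 or 3. For diet averaged, the 3 calls became 1 to 4, with 1 without WT chow replicates 1 or 2 or WT HFD replicate 3. For genotype on chow the count went from 0 to 3 with quality weights, and for genotype averaged from 0 to 1 in DESeq2 and 4 with quality weights. For diet in meKO, genotype on HFD and the interaction it was 0 in every alternative. The cause of these changes was not tested. Over all genes, diet in WT called 2634, 6411 with quality weights and 96 to 4921 with 1 library left out. Genotype on chow called 10, 591 in DESeq2 and 4047 with quality weights. Genotype averaged called 21, 366 in DESeq2 and 3835 with quality weights. No called member changed sign. Signs turned for 13 uncalled differences, listed here on the log2 scale. With the length correction Cxcr4 became -0.22 for diet in WT, -0.03 for diet in meKO and -0.12 for diet averaged, and the interactions of Ccr1 and Cxcr4 became 0.05 and 0.19. Cxcr4 became 0.04 on chow, 0.01 on HFD and 0.03 averaged for genotype with quality weights, and 0.00 on chow with median-of-ratios factors or DESeq2. The Ccr3 interaction became -0.01 with median-of-ratios factors and -0.00 in DESeq2 or with at least 10 counts in every library. With 1 library left out, Ccr2 ran from -0.28 to 0.03 for diet in meKO and from -0.12 to 0.03 for genotype averaged. Ccr1 ran from -0.02 to 0.22 and Cx3cr1 from -0.33 to 0.18 for genotype on HFD. Cxcr4 ran from -0.08 to 0.07 for genotype on chow, from -0.22 to 0.02 on HFD, from -0.11 to 0.01 averaged and from -0.22 to 0.02 in the interaction. The Ccr3 interaction ran from -0.29 to 0.48. No paired analysis was possible because replicate numbers follow accession order and the labels pair no samples. The fit of only the groups compared exists for the 4 simple comparisons alone. Library totals moved the median of all genes for diet in WT from -0.03 to -0.12. Cx3cr1 had the fewest counts, 61 to 270 per library.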
